A study of Homo sapiens with 4 samples.

Results

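The 9 genes described here license and fire replication origins: ORC1, ORC2, ORC6, CDC6, CDT1 and GMNN act in licensing, and CDC45, CDC7 and DBF4 in firing. They were chosen by name, with earlier results of these data known. For each gene the BRPF3 peaks whose nearest edge lay within 5 kb of its start site in the hg19 build were taken, which gave 10 of 13160 peaks in asynchronous cells, 13 of 11532 in mimosine cells and 9 of 13431 in HU cells. The peaks were called from chromatin immunoprecipitation and sequencing (ChIP-seq) in RKO, an established human colon carcinoma line, with a rabbit antibody raised against BRPF3. Asynchronous cells were untreated. Mimosine cells were held in 0.5 mM mimosine for 22 h, and HU cells had the same mimosine treatment, 3 h of release and then 3 mM hydroxyurea for 1 h 30 min. A rabbit IgG library from HU cells was the control for all 3 lists, as the names of the lists state. The labels disagree on the target. Titles and the antibody field give BRPF3 and were followed, while a description gives other proteins of that family. There was 1 library per condition, so differences between lists are given as values, with no test and no replicate spread. The read depth behind each list is unknown.

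Origin licensing is the loading of the MCM helicase onto DNA before S phase. The origin recognition complex, of which ORC1, ORC2 and ORC6 are subunits, binds DNA and recruits CDC6 and CDT1, which together load the helicase. Geminin, the product of GMNN, binds CDT1 and blocks further loading once S phase has begun. Firing starts when the kinase CDC7, activated by its regulatory subunit DBF4, phosphorylates the loaded helicase, and CDC45 then joins it as part of the active replicative helicase. BRPF3 is a scaffold subunit of histone acetyltransferase complexes that contain HBO1, an enzyme first known as a partner of the origin recognition complex. Mimosine arrests cells around the start of DNA synthesis, and hydroxyurea stalls replication by depleting nucleotides. Peaks at these genes report BRPF3 ChIP signal at their promoters, not the activity of origins.

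Because the peaks lay over the start sites, the promoters of 5 of the genes are shown. CDC6 and CDT1 are shown for their match to an E2F site, and ORC6, CDC45 and CDC7 because their mimosine signal was split into several peaks. Each runs 5′ to 3′ in the direction of transcription, from 250 bases before a RefSeq start to 50 after it. Capitals mark CCAAT and the E2F letters TTTCGCGC, TTTGGCGC, TTTCCCGC and TTTGCCGC, on either strand. The sequences are RefSeq's, in GRCh38.p14, and all 5 genes are on the plus strand. They lie at chr17:40287629-40287928 (CDC6), chr16:88803539-88803838 (CDT1), chr16:46689409-46689708 (ORC6), chr22:19479670-19479969 (CDC45) and chr1:91500601-91500900 (CDC7). All other positions are hg19, and none was converted.
CDC6 promoter: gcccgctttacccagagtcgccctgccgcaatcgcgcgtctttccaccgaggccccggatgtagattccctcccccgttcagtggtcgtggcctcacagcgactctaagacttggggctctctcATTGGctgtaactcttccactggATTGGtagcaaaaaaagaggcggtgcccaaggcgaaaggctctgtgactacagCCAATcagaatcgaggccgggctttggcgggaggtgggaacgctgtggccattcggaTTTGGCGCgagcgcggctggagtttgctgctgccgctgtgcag
CDT1 promoter: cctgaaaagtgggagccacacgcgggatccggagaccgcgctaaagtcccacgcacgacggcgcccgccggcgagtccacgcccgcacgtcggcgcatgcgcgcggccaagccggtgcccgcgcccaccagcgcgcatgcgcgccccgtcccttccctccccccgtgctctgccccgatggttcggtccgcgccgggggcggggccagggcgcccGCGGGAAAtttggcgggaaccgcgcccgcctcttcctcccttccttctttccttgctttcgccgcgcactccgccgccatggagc
ORC6 promoter: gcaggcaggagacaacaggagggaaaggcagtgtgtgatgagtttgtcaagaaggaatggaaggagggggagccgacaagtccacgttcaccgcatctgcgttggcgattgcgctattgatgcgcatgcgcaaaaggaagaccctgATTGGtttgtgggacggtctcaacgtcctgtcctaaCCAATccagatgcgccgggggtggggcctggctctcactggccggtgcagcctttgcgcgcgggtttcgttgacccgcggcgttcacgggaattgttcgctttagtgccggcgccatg
CDC45 promoter: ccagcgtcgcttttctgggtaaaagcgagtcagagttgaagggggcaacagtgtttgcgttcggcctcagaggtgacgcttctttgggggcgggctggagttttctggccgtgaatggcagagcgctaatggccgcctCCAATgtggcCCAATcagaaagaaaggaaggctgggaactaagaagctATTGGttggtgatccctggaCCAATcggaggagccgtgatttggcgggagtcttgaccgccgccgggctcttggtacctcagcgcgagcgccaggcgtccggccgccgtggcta
CDC7 promoter: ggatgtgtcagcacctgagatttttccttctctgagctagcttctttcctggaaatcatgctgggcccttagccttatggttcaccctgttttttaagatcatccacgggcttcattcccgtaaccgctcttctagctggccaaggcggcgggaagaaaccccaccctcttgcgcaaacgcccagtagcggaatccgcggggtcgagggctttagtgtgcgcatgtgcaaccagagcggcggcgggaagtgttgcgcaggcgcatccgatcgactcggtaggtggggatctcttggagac

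All 9 genes matched the RefSeq promoter table. It lists more than 1 start for 3 of them, CDC7, GMNN and CDC45, and the first listed was used, which may not be the start that the peaks were measured from. An E2F match was found in 2 of the 9 promoters (CDC6 and CDT1), against 3.31% of the 35116 promoters of the same length. Only the E2F letters listed above were searched, so other forms of the site were not counted. E2F factors are the transcription factors that drive genes at the entry into S phase. CCAAT, the box bound by NF-Y, was found in 5 of the 9 (ORC1, ORC2, ORC6, CDC6 and CDC45), against 34.6% of promoters, and CDC45 held 4 copies. The GC box GGGCGG was found in 6 of the 9, against 45.0% of promoters. The element TTTGAA, known from cell cycle genes of later phases, was found in DBF4 alone, against 15.2%, and TATAAA in 0 of the 9, against 11.5%. The counts differed when a gene was counted for a match at any of its listed starts, over 27305 genes. E2F was then found at 4 of 9 genes, with CDC7 and GMNN added, against 3.99% of genes, and CCAAT at 6, with GMNN added, against 39.7%. The GC box was found at 7, with CDC7 added, against 48.3%, TATAAA at 1, CDC45, against 14.0%, and TTTGAA at 1 still, against 18.2%. All motifs were searched on both strands, and 0 matches of different motifs overlapped within these 9 promoters. Such matches are letters in a window and no evidence of a bound factor. The GC content of the 9 promoters ran from 55.3% (ORC1) to 74.3% (CDT1), against a median of 58.7% over all promoters, and CpG numbers ran from 20 (CDC7) to 47 (CDT1), against a median of 14.

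BRPF3 peaks lay at all 9 genes in all 3 lists. Over the span of the lists on the 22 autosomes and chromosome X, 5.36% of bases lay within 5 kb of an asynchronous peak, 4.16% of a mimosine peak and 5.59% of an HU peak. The start site itself was inside a peak for 9 of 9 genes in asynchronous cells, 8 of 9 in mimosine cells and 9 of 9 in HU cells, while peaks covered 1.33%, 0.835% and 1.48% of bases. These shares describe bases of the genome, not promoters. The share of all promoters with a peak was not analysed here. At each gene the peaks of the 3 lists overlapped and formed 1 merged region, and 71.5% of the 14039 merged regions of the series held a peak of all 3 lists. The exception at the start was CDC7, where the first mimosine peak began 102 bp downstream. The start sites are given to the nearest 10 or 100 bp, so that offset is close to the rounding.

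**Figure D1:**
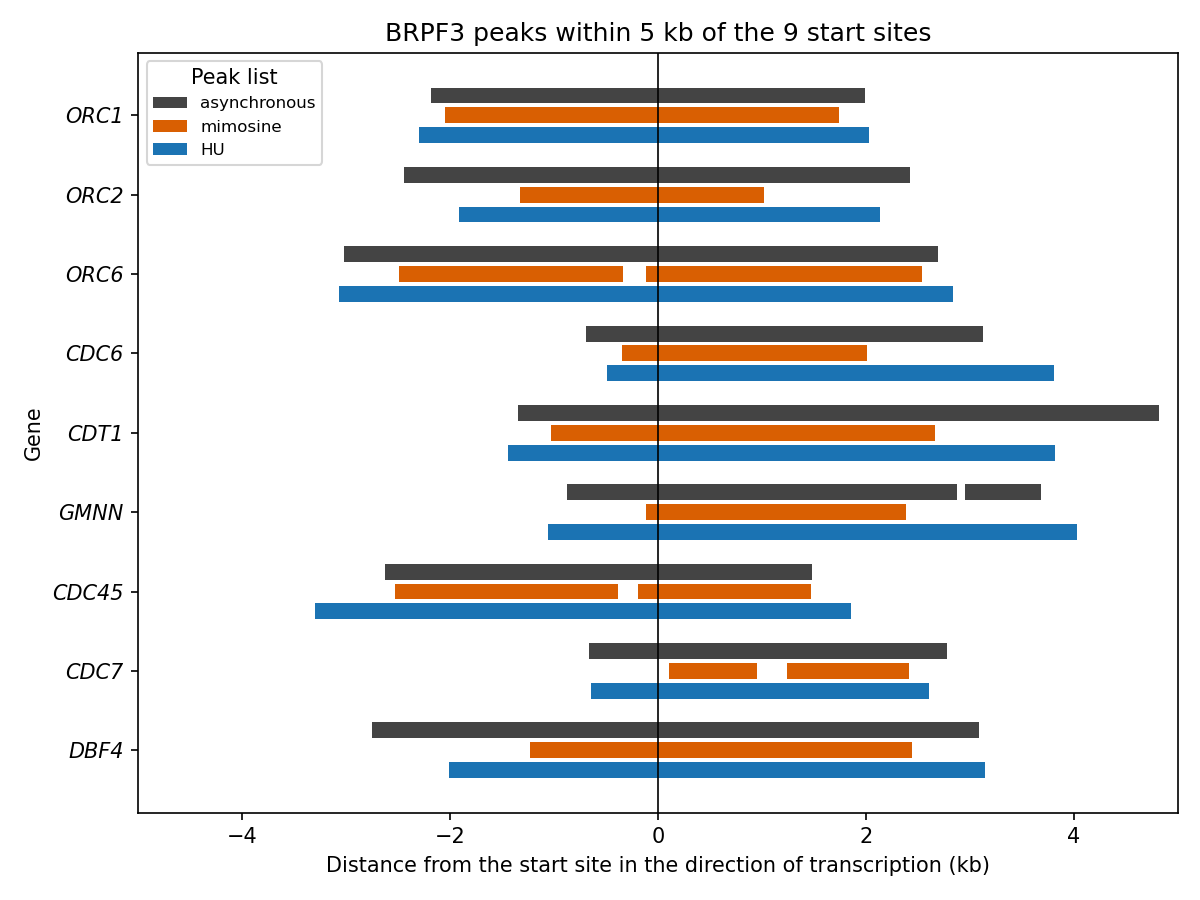
BRPF3 peaks within 5 kb of each start site, as bars from edge to edge. The x axis is the distance from the start in kb, positive in the direction of transcription, and each gene has a row for asynchronous (grey), mimosine (orange) and HU cells (blue). The vertical line is the start site, which lies outside a peak at CDC7 in mimosine cells alone. A 5 bp gap in the downstream mimosine peak of ORC6 is too narrow to see.

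Among the subunits of the origin recognition complex, ORC1 had a peak of similar extent in the 3 lists. It spanned chr1:52868142-52872312 in asynchronous cells and was 4171 bp wide there, 3788 bp in mimosine cells and 4336 bp in HU cells. The peak caller's score, read as 10 times the negative base-10 logarithm of the p-value, is the authors' own value and was compared as a rank percentile within its list, with 100 at the highest score. ORC1 stood at 61.1 in the asynchronous list, 69.8 in the mimosine list and 85.7 in the HU list, so it was highest in the last. At ORC2 the mimosine peak was the narrowest of the 3. The ORC2 peak measured 4866 bp in asynchronous cells (chr2:201825996-201830861), 2342 bp in mimosine cells and 4044 bp in HU cells, with rank percentiles of 81.1, 56.0 and 72.9. ORC6 had 1 wide peak in asynchronous cells (chr16:46720535-46726253, 5719 bp, percentile 83.2) and in HU cells (5916 bp, percentile 91.6). In mimosine cells 3 peaks of 2155, 2087 and 562 bp took its place, at percentiles 53.9, 71.4 and 12.6, and the middle one covered the start. The uncovered stretch between the first 2 of them ran from 338 to 118 bp upstream of the start, a gap of 221 bp. RefSeq places the start of VPS35, a gene of endosomal sorting read from the other strand, within 1 kb upstream of ORC6.

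The helicase loaders CDC6 and CDT1 differed in rank. CDC6 peaks were 3821 bp wide in asynchronous cells (chr17:38443403-38447223), 2364 bp in mimosine cells and 4299 bp in HU cells. Their percentiles were 54.9, 64.8 and 55.2, near the middle of the asynchronous and HU lists. CDT1 had one of the 2 highest-scoring peaks of the 9 genes in asynchronous cells, with a score of 3171 and a width of 6170 bp (chr16:88868839-88875008). Scores of 3100 or more do not order peaks reliably, because 903 asynchronous peaks carry exactly 3100 and 77 lie above it. Set to 3100, the CDT1 peak stood at percentile 96.3, against 90.0 in mimosine cells (3687 bp) and 81.7 in HU cells (5266 bp). Its rank was thus lowest in HU cells, while its score was slightly lower in mimosine cells, 1561 against 1617. Scores ran lower over the whole mimosine list, with a median of 277 against 534 in the HU list. A further peak lay just outside the 5 kb limit of CDT1 in every list. It lay 5218 bp downstream of the start in asynchronous, 5514 bp in mimosine and 5109 bp in HU cells. APRT, an enzyme of adenine salvage, neighbours CDT1 on that side in RefSeq and is read from the other strand. No other gene had a peak beyond 5 kb and within 10 kb, and the next nearest were 18.4 kb away or more.

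GMNN, the gene of the inhibitor, had a main peak of 3752 bp in asynchronous cells (chr6:24774325-24778076) at percentile 72.5. It measured 2504 bp in mimosine cells and 5093 bp in HU cells, at percentiles 68.5 and 81.3. A further asynchronous peak of 731 bp with a score of 52.95, close to the lowest score of 50 in the lists, lay 79 bp beyond the main one and began 2956 bp from the start, the farthest of all the peaks taken. The single HU peak covered both. The mimosine peak reached only 113 bp upstream of the start, against 875 bp for the asynchronous and 1058 bp for the HU peak.

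Of the firing genes, CDC45 had a split mimosine signal like ORC6. Its peak was 4106 bp wide in asynchronous cells (chr22:19464776-19468881), at percentile 82.5, and the HU peak 5160 bp wide, at percentile 87.3. In mimosine cells a 2143 bp peak at percentile 78.6 lay upstream and a 1666 bp peak at percentile 35.2 covered the start, with 194 bp uncovered between them from 383 to 190 bp upstream. The higher-scoring mimosine peak was therefore the one on the side of UFD1, a gene of protein degradation that neighbours CDC45 there in RefSeq. At ORC6 the order was the other way, with the higher score on the peak over the start. CDC7, the kinase, had the lowest-ranked main peak of the 9 genes in each of the 3 lists. It spanned 3443 bp (chr1:91965739-91969181, percentile 53.1) in asynchronous cells, while the HU peak was 3250 bp wide (percentile 36.4). Mimosine cells held 2 peaks of 847 and 1174 bp at percentiles 26.6 and 21.6, both downstream of the start and 291 bp apart. DBF4, the activator of CDC7, was at the other end. Its asynchronous peak scored 3179 (5844 bp, chr7:87502784-87508627) and stood at percentile 96.3 when set to 3100, and its mimosine and HU peaks stood at 90.0 (3677 bp) and 89.8 (5160 bp). The 2 subunits of the same kinase thus lay far apart in rank in all 3 lists.

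The peaks reached different distances upstream. ORC1, ORC6, CDC45 and DBF4 have a protein-coding neighbour within 1 kb upstream in RefSeq: PRPF38A, VPS35, UFD1 and SLC25A40. All but UFD1, which has no entry in the promoter table, are listed there with a start on the other strand. In asynchronous cells the signal at these 4 genes extended 2182, 3025, 2624 and 2756 bp upstream of the start. At CDC6, CDT1, GMNN and CDC7, with no such neighbour upstream, it extended 697, 1351, 875 and 661 bp upstream. ORC2 also lacked one and was the exception, with 2441 bp. In HU cells the ranges were 2015 to 3300 bp for the first 4 genes and 492 to 1444 bp for the second 4, with ORC2 at 1910 bp. In mimosine cells DBF4 at 1231 bp and CDT1 at 1025 bp came close to each other, and ORC2 at 1324 bp reached farther than DBF4. Downstream the reach in asynchronous cells was 1481 bp (CDC45) to 4818 bp (CDT1), and the 4 genes without the neighbour had 78.1 to 81.8% of the signal's extent on the transcribed side, against 36.1 to 52.8% for the 4 with one and 49.8% for ORC2. This grouping was made after the values were seen, and whether the upstream reach belongs to the neighbouring gene was not tested.

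Mimosine peaks were the narrower at every gene, as they were in most merged regions with 1 peak per list. The main peak, meaning the one over the start or else the nearest, was narrower in mimosine than in asynchronous cells at 9 of 9 genes, against 98.2% of the 8653 merged regions to which each list gave 1 peak. The median width ratio over the 9 genes was 0.598 (interquartile range 0.406 to 0.629), against 0.694 (0.571 to 0.802) over those regions. Where the mimosine signal was split, the main peak held part of it. With all peaks within 5 kb added up, the ratio was 0.840 at ORC6, 0.928 at CDC45 and 0.587 at CDC7, against 0.365, 0.406 and 0.246 for the main peak alone. CDC7 thus stayed below the median of the regions either way, and the median over the 9 genes was 0.619. At GMNN, whose further peak was asynchronous, adding up lowered the ratio from 0.667 to 0.559. Of the 5 genes with 1 peak per list, ORC1 had the highest ratio, 0.908, which was above that of 92.6% of the regions. ORC2 had the lowest of the 5, 0.481, above that of 12.9% of the regions. Mimosine peaks covered 48.1% (ORC2) to 92.8% (CDC45) of the bases of the asynchronous peaks, with a median of 61.9%, against 69.6% for asynchronous peaks of regions in all 3 lists. Both outer edges lay closer to the start in mimosine cells at all 9 genes, apart from CDC7 where the upstream edge lay beyond it. The difference was smallest at CDC45, with 98 bp upstream and 5 bp downstream, and reached 1525 bp upstream at DBF4 and 2157 bp downstream at CDT1.

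Signal split into 2 or more mimosine peaks was found at 3 of the 9 genes (ORC6, CDC45 and CDC7), against 11.9% of the 10044 regions in all 3 lists. For asynchronous cells the count was 1 of 9 (GMNN) against 2.81%, and for HU cells 0 of 9 against 1.15%. With 9 genes these counts are small, and nothing particular to them is read from the difference.

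**Figure D2:**
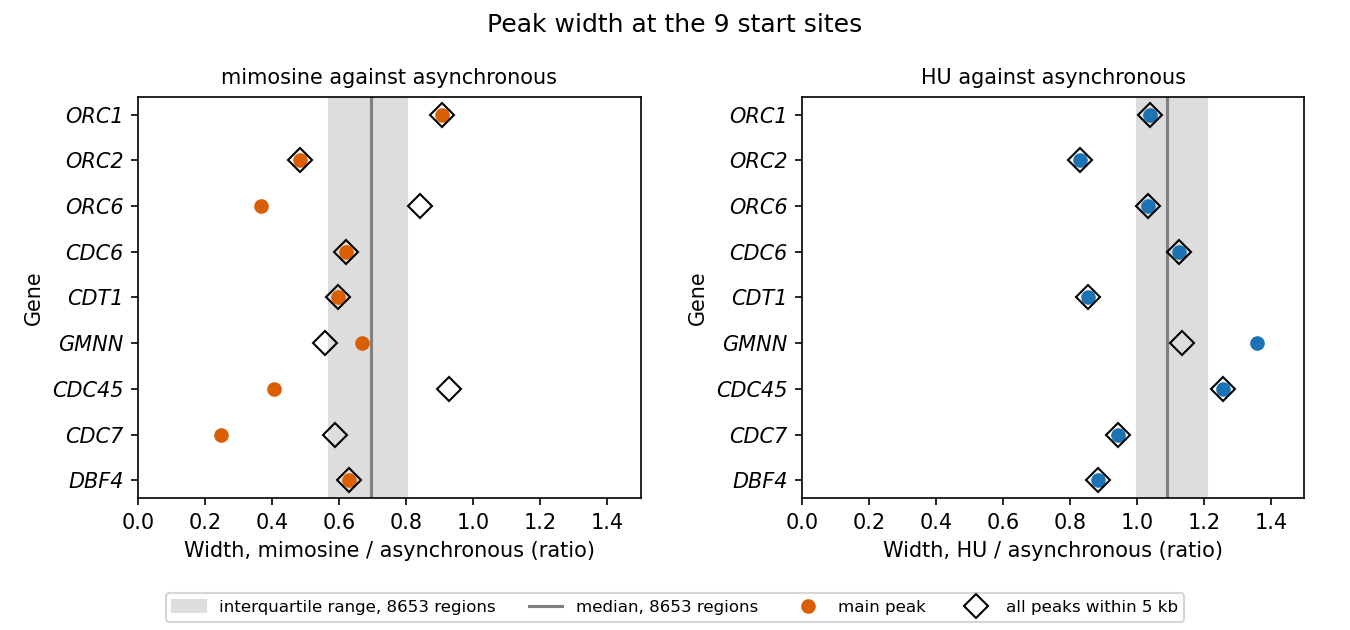
Peak width at each gene as a ratio to the asynchronous width, for mimosine (left) and HU cells (right). Filled points are the main peak, open diamonds all peaks within 5 kb, and the grey line and band the median and interquartile range over the 8653 regions with 1 peak per list. Mimosine ratios all lie below 1, and ORC6, CDC45 and CDC7 have diamonds far to the right of their points, though that of CDC7 stays left of the median. The GMNN diamond lies to the left of its point in both panels.

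HU cells showed no common direction of width. The main HU peak was wider than the asynchronous one at 5 of 9 genes (ORC1, ORC6, CDC6, GMNN and CDC45), against 75.1% of the 8653 regions. The ratio ran from 0.831 (ORC2) to 1.36 (GMNN), with a median of 1.03 against 1.09 over the regions. The GMNN ratio is 1.14 when its small asynchronous peak is added. ORC2, CDT1 at 0.853 and DBF4 at 0.883 lay lower than all but 3.34%, 4.53% and 6.70% of the regions. CDC7 was also narrower, at 0.944. HU peaks covered 83.1% (ORC2) to 100% of the asynchronous peak bases, with a median of 94.6%. For asynchronous peaks of regions in all 3 lists the median was 100% (interquartile range 95.2 to 100%). The asynchronous signal thus lay mostly within the HU signal at each gene, though the median over the 9 genes was below the lower quartile of those regions.

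By rank, the main peaks stood in the upper part of their lists. The asynchronous median over the 9 genes was 81.1, the mimosine median 68.5 and the HU median 81.7. Each gene entered with its main peak alone. Over all peaks of regions found in every list, with each peak of a split signal counted, the medians were 60.6, 50.5 and 62.2. A percentile above 50 was held by 9, 7 and 8 of the 9 genes, against 63.4%, 50.5% and 66.0% of those peaks. Mimosine peaks stood lower than asynchronous ones at 7 of 9 genes, against 68.8% of the 8653 regions. The exceptions in rank were ORC1 (higher by 8.76 percentile points) and CDC6 (higher by 9.92). Their scores were lower in mimosine cells, 568 against 789 at ORC1 and 476 against 652 at CDC6. The median score of the whole list was 277 in mimosine and 562 in asynchronous cells. The shift at CDC45 was -47.3 points, but its higher-scoring upstream mimosine peak, at percentile 78.6, stood close to the asynchronous 82.5. Between asynchronous and HU cells 5 of 9 genes stood higher in HU cells, against 56.3% of regions. ORC1 was higher in HU cells by 24.6 points, a shift above that of 98.6% of regions. The shifts of -16.7 points at CDC7 and -14.6 points at CDT1 lay below all but 2.51% and 3.95% of regions. The other 6 moved by 8.83 points or less in either direction. Without replicates, how far such shifts vary between libraries of 1 condition is unknown.

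**Figure D3:**
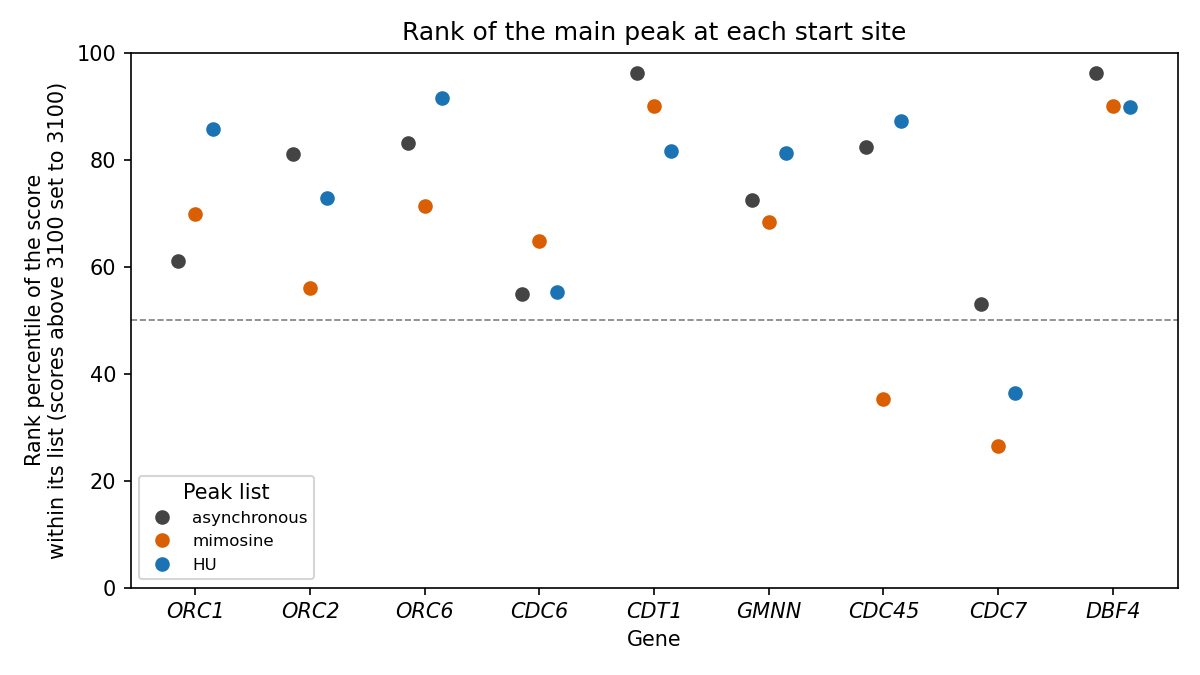
Rank percentile of the main peak's score within its own list for each gene, with scores above 3100 set to 3100; points are asynchronous (grey), mimosine (orange) and HU cells (blue), and the dashed line marks 50. CDC7 is lowest in each list, and 3 points lie below the line: CDC7 in mimosine (26.6) and HU cells (36.4) and CDC45 in mimosine cells (35.2).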

How the data were processed

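ChIP-seq peak lists of 3 BRPF3 libraries from RKO cells, 1 per condition, were used. The submitters' processing notes name Bowtie 0.12.8, SAMtools, MACS 1.4.0 and bedtools, without roles or settings, and both hg18 and hg19. Positions were read as hg19, counted from 1. The authors deposited the lists with a score per peak, whose form and lowest value of 50 were read as 10 times the negative base-10 logarithm of the p-value. Reads were not analysed here.

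Peaks with an edge within 5 kb of the 9 start sites were taken, and peaks of different lists sharing at least 1 bp were merged into regions. Rank percentiles gave tied scores their mean rank. Strand and neighbours came from RefSeq tables of GRCh38.p14. Other genes of the pathway were listed, but were not analysed because no hg19 annotation was used. All 9 genes are named. Members and lists were chosen with earlier results of these data known. Alternatives were other distances, score limits, overlaps, merging and choices of the main peak. Positions, edges and covered bases were tested on simulated data. Calculations used NumPy 2.4.6, pandas 2.3.3 and SciPy 1.17.1 under Python 3.11.15, and plots matplotlib 3.10.9.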

Additional observations from a re-analysis of the deposited data

How the results depend on the processing

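Of 50 alternatives, 46 left their value unchanged as printed or, for counts of genes, within 1.5 times. That limit is wide for 9 genes, as a fall from 9 to 6 was still within it. Under a reciprocal overlap of 50%, mimosine and HU peaks overlapped at 5 of 9 genes and mimosine and asynchronous peaks at 6, instead of 9 each, since a narrow peak cannot cover 50% of one more than 2 times its width. The median width ratio of mimosine to asynchronous peaks was 0.619 with all peaks within 5 kb added up and 0.629 with peaks within 1 kb merged, against 0.598. With the highest-scoring peak in place of the one over the start, the median mimosine rank percentile was 69.8, against 68.5. With the 5766 top-scoring peaks of each list, 7 of 9 genes kept a peak in asynchronous cells and 7 in HU cells, both without CDC6 and CDC7, and 8 in mimosine cells, without CDC7. At 1, 2 or 10 kb, or with a score of 100 or more, all 9 genes had a peak in each list. These settings, counted among the 46, could not have lost a gene. Every main peak covered its start or, at CDC7 in mimosine cells, lay 102 bp away, and the lowest main score was 120.88. No paired analysis was possible because each condition had 1 library. Depth is unknown, which limits what an uncovered stretch means.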
